A study of Homo sapiens with 6 samples.

Results

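The respiratory chain of the inner mitochondrial membrane is built from subunits that are, apart from a small set made inside the mitochondrion, encoded by nuclear genes. These nuclear genes were taken here by symbol from the RefSeq gene table of GRCh38.p14: every protein-coding gene on chromosomes 1 to 22 and X whose symbol begins with NDUF, UQCR, SDHA, SDHB, SDHC, SDHD, ATP5 or with COX followed by a further letter or digit, together with CYC1 and CYCS. The rule gave 114 genes of 19821. Of these, 91 encode subunits (including the inhibitor of ATP synthase), 21 encode assembly factors and 2 are read-through genes of a subunit locus and its neighbour (NDUFC2-KCTD14 and ATP5MF-PTCD1). A gene was counted as marked in a peak list when a peak lay within 1 kb of either of its ends.

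The peaks come from chromatin immunoprecipitation and sequencing with BG4, an antibody that binds DNA G-quadruplexes (G4s), in U2OS, an established human osteosarcoma cell line. Cells were treated with 1,6-hexanediol (HD), a small alcohol used to dissolve condensates held together by weak hydrophobic contacts, or left untreated (Ctrl). Per condition there were 2 ChIP libraries and 1 of input. Neither dose nor length of treatment is given in the sources used here. All cells were fixed in formaldehyde at 1% for 10 min and sonicated. The comparison asks which of the genes carry a BG4 peak with and without hexanediol.

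Complexes I to IV of the chain pass electrons from NADH and succinate to oxygen, with coenzyme Q and cytochrome c as the mobile carriers between them, and complex V uses the resulting proton gradient to make ATP. Most, though not all, nuclear genes for the subunits are expressed in nearly all cells from short, GC-rich promoters. Many of these promoters are known targets of the transcription factors NRF-1, GABP (an ETS family protein) and YY1. A G4 is a stacked structure of guanine tetrads that a strand with several closely spaced runs of guanines can fold into.

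Each condition had 1 deposited list, with 2269 peaks in HD and 3507 in Ctrl, of which 2172 and 3376 lay on chromosomes 1 to 22 and X. Every peak name in the HD list carries the number of replicate 1, so that list may not rest on both libraries. No value per library was used, so the spread between libraries is unknown, no difference between the conditions could be tested, and all intervals given are exact 95% intervals for counting error only. ChIP depth, recovered from the deposited fold and p-values, was 27539 fragments per Mb in HD and 19603 in Ctrl. The weakest peak of any kind held 20 fragments at its summit in HD and 15 in Ctrl, and no peak with fewer is listed in that condition. The summit is the point of highest ChIP coverage in a peak, and −log10 q is the adjusted significance that the authors' peak caller gave it. Fragments at the summit are also given as a ratio to the number the caller expected there. That expectation is never below a genome-wide value, 5.51 fragments in HD and 3.74 in Ctrl, and exceeds it where the local value is higher. It equalled the genome-wide value at 2 of 11 marked genes in HD (ATP5F1C and SDHB) and at 5 of 19 in Ctrl (CYCS, NDUFA11, SDHB, SDHC and UQCRH), so for these the ratio holds no value of input at the site.

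The promoters of the respiratory chain genes marked in both lists are printed first, since the peaks described in what follows lie over these windows. CYC1 is the only gene marked in both lists that is not shown. ATP5F1E is added as the gene marked in a single list with the highest −log10 q. Each sequence is the RefSeq GRCh38.p14 window from 250 bases before the annotated start to 50 bases after it, written 5′ to 3′ on the strand of the gene. Capitals mark matches to a G4 motif (4 runs of GGG with loops of 1 to 7 bases, printed as runs of C where it lies on the opposite strand), to the NRF-1 motif GCGCANGCG, to the ETS motif CCGGAAG or to the YY1 motif AAGATGGCG, each searched on both strands. Capitals in ATP5PD are first the G4 motif and then an ETS motif read on the opposite strand, those in NDUFV2 are a G4 motif on the opposite strand, and those in SDHB are a G4 motif on the opposite strand, an ETS motif and a YY1 motif. In ATP5F1C they are an NRF-1 motif found on both strands, and in NDUFAF8 an ETS motif followed by a YY1 motif. The windows are chr10:7787927-7788226 (plus strand) for ATP5F1C, chr17:48892537-48892836 (plus) for ATP5MC1, chr17:75046920-75047219 (minus) for ATP5PD, chr17:81239061-81239360 (plus) for NDUFAF8, chr18:9102449-9102748 (plus) for NDUFV2, chr21:42893059-42893358 (plus) for NDUFV3, chr1:17053983-17054282 (minus) for SDHB and chr20:59032286-59032585 (minus) for ATP5F1E.
ATP5F1C: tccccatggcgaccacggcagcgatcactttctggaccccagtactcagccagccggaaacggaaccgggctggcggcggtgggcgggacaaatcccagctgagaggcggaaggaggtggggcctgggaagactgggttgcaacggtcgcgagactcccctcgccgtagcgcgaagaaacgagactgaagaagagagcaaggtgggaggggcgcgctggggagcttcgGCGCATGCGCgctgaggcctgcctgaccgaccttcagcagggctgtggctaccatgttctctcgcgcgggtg
ATP5MC1: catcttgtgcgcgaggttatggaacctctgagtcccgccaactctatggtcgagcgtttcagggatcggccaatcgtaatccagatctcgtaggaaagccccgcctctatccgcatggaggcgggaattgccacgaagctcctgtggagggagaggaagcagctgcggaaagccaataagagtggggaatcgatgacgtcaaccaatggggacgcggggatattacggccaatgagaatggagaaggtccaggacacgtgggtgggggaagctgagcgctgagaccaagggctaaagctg
ATP5PD: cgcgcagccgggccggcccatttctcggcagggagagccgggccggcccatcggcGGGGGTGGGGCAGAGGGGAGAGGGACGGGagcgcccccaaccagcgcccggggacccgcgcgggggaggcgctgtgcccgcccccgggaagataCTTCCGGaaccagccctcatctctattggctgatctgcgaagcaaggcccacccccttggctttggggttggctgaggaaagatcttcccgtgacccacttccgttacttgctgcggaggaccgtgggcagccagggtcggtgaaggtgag
NDUFAF8: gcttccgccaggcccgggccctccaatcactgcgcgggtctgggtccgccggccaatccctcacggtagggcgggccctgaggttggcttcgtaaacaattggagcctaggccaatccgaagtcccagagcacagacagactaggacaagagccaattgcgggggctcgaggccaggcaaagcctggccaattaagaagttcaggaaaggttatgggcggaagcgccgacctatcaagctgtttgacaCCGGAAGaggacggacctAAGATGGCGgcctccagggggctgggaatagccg
NDUFV2: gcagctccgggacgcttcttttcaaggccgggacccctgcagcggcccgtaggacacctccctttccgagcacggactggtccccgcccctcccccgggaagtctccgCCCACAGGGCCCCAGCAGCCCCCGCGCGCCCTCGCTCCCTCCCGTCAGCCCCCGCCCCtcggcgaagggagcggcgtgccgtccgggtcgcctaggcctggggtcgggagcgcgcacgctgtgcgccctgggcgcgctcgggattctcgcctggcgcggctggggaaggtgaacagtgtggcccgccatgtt
NDUFV3: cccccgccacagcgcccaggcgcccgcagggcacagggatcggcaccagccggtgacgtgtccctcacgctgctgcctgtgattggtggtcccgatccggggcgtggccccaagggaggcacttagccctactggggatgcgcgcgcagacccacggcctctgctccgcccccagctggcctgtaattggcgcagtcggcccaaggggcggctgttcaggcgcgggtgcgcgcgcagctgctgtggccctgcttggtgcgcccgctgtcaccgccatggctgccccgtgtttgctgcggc
SDHB: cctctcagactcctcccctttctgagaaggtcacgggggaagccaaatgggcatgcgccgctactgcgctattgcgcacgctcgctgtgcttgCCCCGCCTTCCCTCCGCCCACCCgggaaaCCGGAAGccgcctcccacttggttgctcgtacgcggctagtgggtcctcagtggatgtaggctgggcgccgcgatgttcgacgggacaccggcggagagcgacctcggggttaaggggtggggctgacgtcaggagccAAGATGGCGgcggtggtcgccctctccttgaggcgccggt
ATP5F1E: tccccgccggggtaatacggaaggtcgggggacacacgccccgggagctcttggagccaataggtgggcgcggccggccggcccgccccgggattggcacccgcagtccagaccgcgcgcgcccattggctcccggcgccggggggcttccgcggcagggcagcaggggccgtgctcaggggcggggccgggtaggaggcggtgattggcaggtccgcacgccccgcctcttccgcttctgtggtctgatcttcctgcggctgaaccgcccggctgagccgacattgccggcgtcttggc

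BG4 peaks lay at 11 respiratory chain genes in HD and at 19 in Ctrl. Both lists marked 8 of them: NDUFV2 and NDUFV3 of complex I, the complex I assembly factor NDUFAF8, SDHB of complex II, CYC1 of complex III, and ATP5F1C, ATP5MC1 and ATP5PD of complex V. The HD list alone marked NDUFB4, NDUFS8 and ATP5MK. The Ctrl list alone marked 11, namely NDUFA11, NDUFB6, SDHC, UQCRH, UQCRQ, CYCS, COX15, COX18, ATP5F1E, ATP5PF and ATP5PO. No peak of either list lay within 1 kb of an end of the other 92 genes.

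The marked share of the 114 genes was 9.65% in HD (interval 4.92% to 16.6%), where 8.11% of all protein-coding genes were marked. In Ctrl it was 16.7% (10.3% to 24.8%), where 10.9% of all protein-coding genes were marked. Genes in both lists made up 7.02% of the respiratory chain genes and 5.20% of all. The HD list alone marked 2.63% of them (background 2.92%), and the Ctrl list alone 9.65% (background 5.70%). In each case the interval around the share of the respiratory chain genes included the background. Of the genes marked in HD, 8 of 11 (72.7%, interval 39.0% to 94.0%) were also marked in Ctrl, beside 64.0% of the other coding genes. Of those marked in Ctrl, 8 of 19 (42.1%, 20.3% to 66.5%) were also marked in HD, beside 47.7%.

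Ctrl had the longer list, and why it marked more genes was not tested. Cutting a list can only lower the number of genes that it marks or leave it unchanged. When the Ctrl list was reduced to its 2172 highest −log10 q values, the number of peaks that HD had, HD marked 11 genes and Ctrl 10 (8.77%, where 7.83% of all coding genes were marked). Among all coding genes the same cut lowered the number marked in Ctrl from 2160 to 1551. The Ctrl list then alone marked 3 genes, ATP5F1E, ATP5PO and COX15, and no longer marked SDHB. The other 8 genes found in Ctrl only had peaks that ranked below that length.

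**Figure D1:**
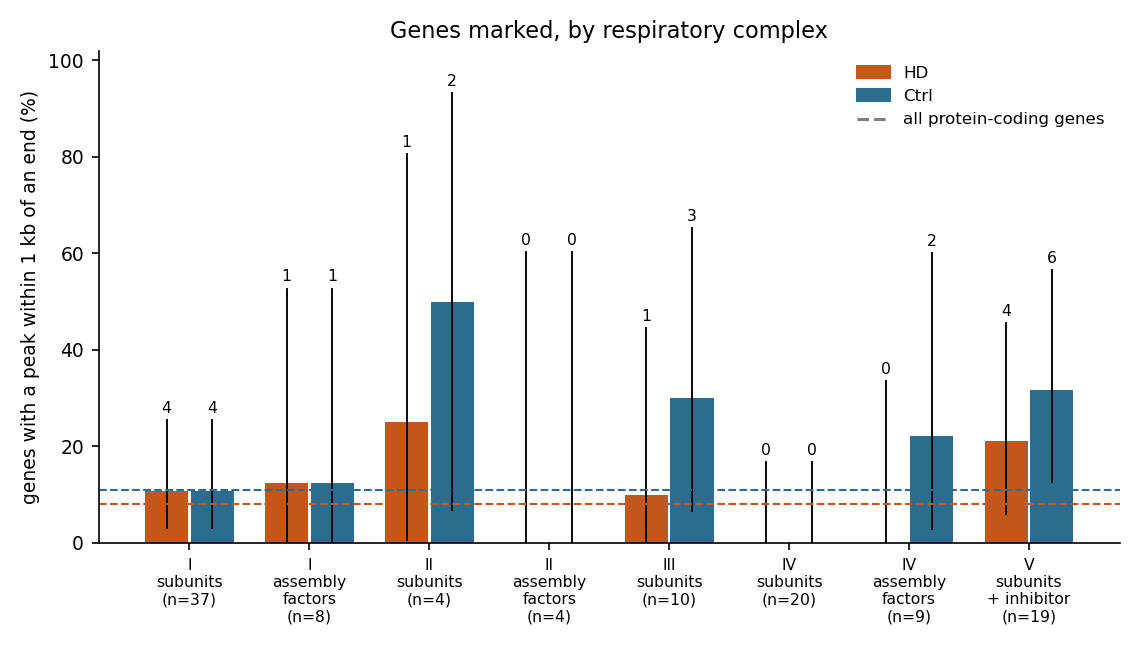
Percentage of genes with a BG4 peak within 1 kb of an end, by complex, in HD (left bars) and Ctrl (right bars), with exact 95% binomial intervals and the number of marked genes above each bar; dashed lines give all protein-coding genes, 8.11% in HD and 10.9% in Ctrl, and cytochrome c (1 gene) and the 2 read-through genes are not drawn. Complex V has the tallest bars among the groups of 10 or more genes (4 and 6 of 19), and complex IV subunits have none (0 of 20 in either list).

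Complex I takes electrons from NADH. Of its 37 subunit genes, 4 (10.8%, 3.03% to 25.4%) were marked in HD and 4 in Ctrl, with 2 in common. That interval includes the backgrounds of 8.11% and 10.9%. NDUFV2 encodes an iron-sulfur subunit of the module that oxidises NADH. Its peak held 49 fragments at the summit in HD and 46 in Ctrl, against 11.2 expected in HD and 6.58 in Ctrl. The ratio to the expectation was thus 4.37 (3.24 to 5.78) in HD and 6.99 (5.12 to 9.32) in Ctrl. In the Ctrl list this gene had the highest −log10 q of all the respiratory chain genes, 17.1, and its deposited fold exceeded that of 93.7% of Ctrl peaks. NDUFV3, an accessory subunit of the same module, held 48 fragments in HD and 35 in Ctrl, at ratios to the expectation of 6.59 (4.86 to 8.74) and 5.32 (3.70 to 7.39). Its −log10 q of 12.7 was the highest among these genes in HD. The same peaks touched the window of WDR4, so for NDUFV3 the peak cannot be assigned to 1 gene.

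The other marked complex I genes were found in 1 list each. NDUFS8, an iron-sulfur subunit near the site where coenzyme Q is reduced, had 32 fragments in HD at 5.19 times the expectation (3.55 to 7.33). A Ctrl peak lay 2.35 kb away from it, outside the window. NDUFB4, an accessory subunit of the membrane arm, had 30 fragments in HD at 4.12 times the expectation (2.78 to 5.88), and the nearest Ctrl peak was 247 kb away. Both accessory subunits marked only in Ctrl had peaks away from the start of the gene. The peak counted for NDUFA11 had 20 fragments (ratio 5.35, 3.27 to 8.26) with its summit 800 bp upstream, and it also touched the window of VMAC. The peak counted for NDUFB6 had 23 fragments (ratio 4.76, 3.02 to 7.14) and lay beyond its 3′ end, with a summit 619 bp from that end, in the window of TOPORS as well. Neither was marked when each peak was given only to the gene with the nearest end.

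Of 8 complex I assembly factors, NDUFAF8, which acts with the assembly enzyme NDUFAF5, was marked in both lists (12.5%, 0.316% to 52.7%, beside backgrounds of 8.11% and 10.9%). It held 47 fragments in HD at 5.59 times the expectation (4.11 to 7.44) and 30 in Ctrl at 6.23 times the expectation (4.20 to 8.90). Its peaks also touched the window of TEPSIN. NDUFAF3 was the unmarked gene nearest to a peak: an HD peak of 39 fragments lay inside the gene, 1043 bp from an end, just past the 1 kb window.

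Complex II, succinate dehydrogenase, links the tricarboxylic acid cycle to the chain. Of its 4 subunit genes, 1 was marked in HD and 2 in Ctrl, and none of the 4 assembly factor genes (SDHAF1 to SDHAF4) was marked in either list. SDHB, the iron-sulfur subunit, held 30 fragments in HD at 5.44 times the expectation (3.67 to 7.77) and 20 in Ctrl at 5.35 times the expectation (3.27 to 8.26). SDHC, a membrane anchor that helps bind haem, had 18 fragments in Ctrl at 4.82 times the expectation (2.85 to 7.61), and no HD peak lay closer than 26.7 kb. A Ctrl peak of 31 fragments lay 2577 bp from the end of SDHA, the flavoprotein subunit, and so did not count.

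Complex III passes electrons from coenzyme Q to cytochrome c. Of its 10 genes, 1 (10.0%, 0.253% to 44.5%) was marked in HD and 3 (30.0%, 6.67% to 65.2%) in Ctrl. These intervals include the backgrounds of 8.11% and 10.9%. CYC1, which encodes cytochrome c1, had more summit fragments than any other respiratory chain gene in either list, 66 in HD and 48 in Ctrl. It also had the highest expectation in HD, 15.4, beside 9.71 in Ctrl, so that its ratio to it was 4.28 (3.31 to 5.45) in HD and 4.94 (3.64 to 6.55) in Ctrl. UQCRQ, a small subunit of the complex, had 25 fragments in Ctrl at 4.34 times the expectation (2.81 to 6.41), and its peak was shared with GDF9. UQCRH, the hinge protein that contacts cytochrome c1, had 15 fragments in Ctrl, the lowest number that entered that list, at 4.01 times the expectation (2.25 to 6.62) and a −log10 q of 1.49. Its peak also touched the window of LRRC41, and UQCRH was not marked when each peak was given only to the gene with the nearest end. CYCS encodes cytochrome c itself, the soluble carrier that also triggers apoptosis when released. It had 20 fragments in Ctrl at 5.35 times the expectation (3.27 to 8.26), in a peak shared with SPMIP4.

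Complex IV, cytochrome c oxidase, reduces oxygen. None of its 20 nuclear subunit genes was marked in HD or in Ctrl, which allows a share of up to 16.8% by the exact interval. That bound lies above the backgrounds of 8.11% and 10.9%. The nearest peak of either list was 7.26 kb to 15400 kb from an end of these genes, with a median of 103 kb. The closest was inside COX7A2L, a paralog that acts in supercomplex assembly, with 43 fragments in HD and 23 in Ctrl. Of the 9 assembly factors, none was marked in HD and 2 were in Ctrl. COX15, an enzyme of haem A synthesis, had 32 fragments in Ctrl at 5.02 times the expectation (3.43 to 7.08), in a peak shared with CUTC. COX18, which helps to place a mitochondrially encoded subunit in the membrane, had 21 fragments in Ctrl at 4.50 times the expectation (2.78 to 6.87). The nearest HD peak was 34.8 kb from COX15 and 2210 kb from COX18.

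Complex V, ATP synthase, had 7 of its 19 genes marked in either list. Of all 19, 4 were marked in HD (21.1%, 6.05% to 45.6%) and 6 in Ctrl (31.6%, 12.6% to 56.6%). In Ctrl the lower bound lay above the background of 10.9%, and in HD the interval included the background of 8.11%. At a −log10 q of at least 3, which leaves out ATP5PF, Ctrl marked 5 of 19 (26.3%, 9.15% to 51.2%), and that interval includes the 10.0% of all coding genes marked at this setting. Under the other alternatives run, the Ctrl lower bound lay above the share of all coding genes, though only just with 1 gene per peak. In HD the interval included that share except when only gene starts of known strand were used. There HD marked 4 of 14 (28.6%, 8.39% to 58.1%), beside 8.06% of all coding genes. This group was singled out after the values of all 9 groups were seen. Its intervals treat the genes as independent draws, and no enrichment was tested. Marked genes came from the central stalk, the peripheral stalk and the membrane part of the enzyme.

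ATP5F1C encodes the gamma subunit of the rotating central stalk. It held 28 fragments in HD at 5.08 times the expectation (3.38 to 7.34) and 25 in Ctrl at 5.79 times the expectation (3.75 to 8.55), in peaks that also touched KIN. ATP5F1E, the small epsilon subunit bound to it, was marked in Ctrl only, with 32 fragments at 5.76 times the expectation (3.94 to 8.13) and a −log10 q of 9.04. The nearest HD peak was 636 kb away, and the Ctrl peak was shared with PRELID3B. ATP5PD, a subunit of the peripheral stalk that holds the catalytic head in place, held 47 fragments in HD and 28 in Ctrl. Its ratio to the expectation was 6.77 (4.97 to 9.0) in HD, the highest of these genes in that list, and 5.04 (3.35 to 7.28) in Ctrl. No other gene window was touched by its peaks.

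Both further peripheral stalk genes were marked in Ctrl only. ATP5PO, which joins the stalk to the head, had 25 fragments at 4.63 times the expectation (3.0 to 6.84). ATP5PF, coupling factor F6, had 23 fragments at 3.05 times the expectation (1.93 to 4.57) and a −log10 q of 1.96. Its summit was 518 bp inside the outermost annotated start but 81 bp upstream of the start used for its RefSeq promoter window. That peak was shared with GABPA, which encodes the DNA-binding subunit of GABP. In the membrane part, ATP5MC1, a source of the c-ring through which protons pass, held 37 fragments in HD at 5.28 times the expectation (3.72 to 7.28) and 35 in Ctrl at 3.60 times the expectation (2.51 to 5.01). Its peaks were the widest at these genes, 643 bp in HD and 519 bp in Ctrl. ATP5MK, a small membrane subunit, had 28 fragments in HD at 4.76 times the expectation (3.16 to 6.88), in a peak shared with PDCD11, and the nearest Ctrl peak was 470 kb away. When each peak was given only to the gene with the nearest end, ATP5F1C and ATP5MK were no longer marked in HD, nor ATP5PF in Ctrl, which left 2 of 19 in HD and 5 of 19 in Ctrl. ATP5F1A, which encodes the alpha subunit of the head, was unmarked, with a Ctrl peak of 23 fragments inside the gene, 3979 bp from an end.

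**Figure D2:**
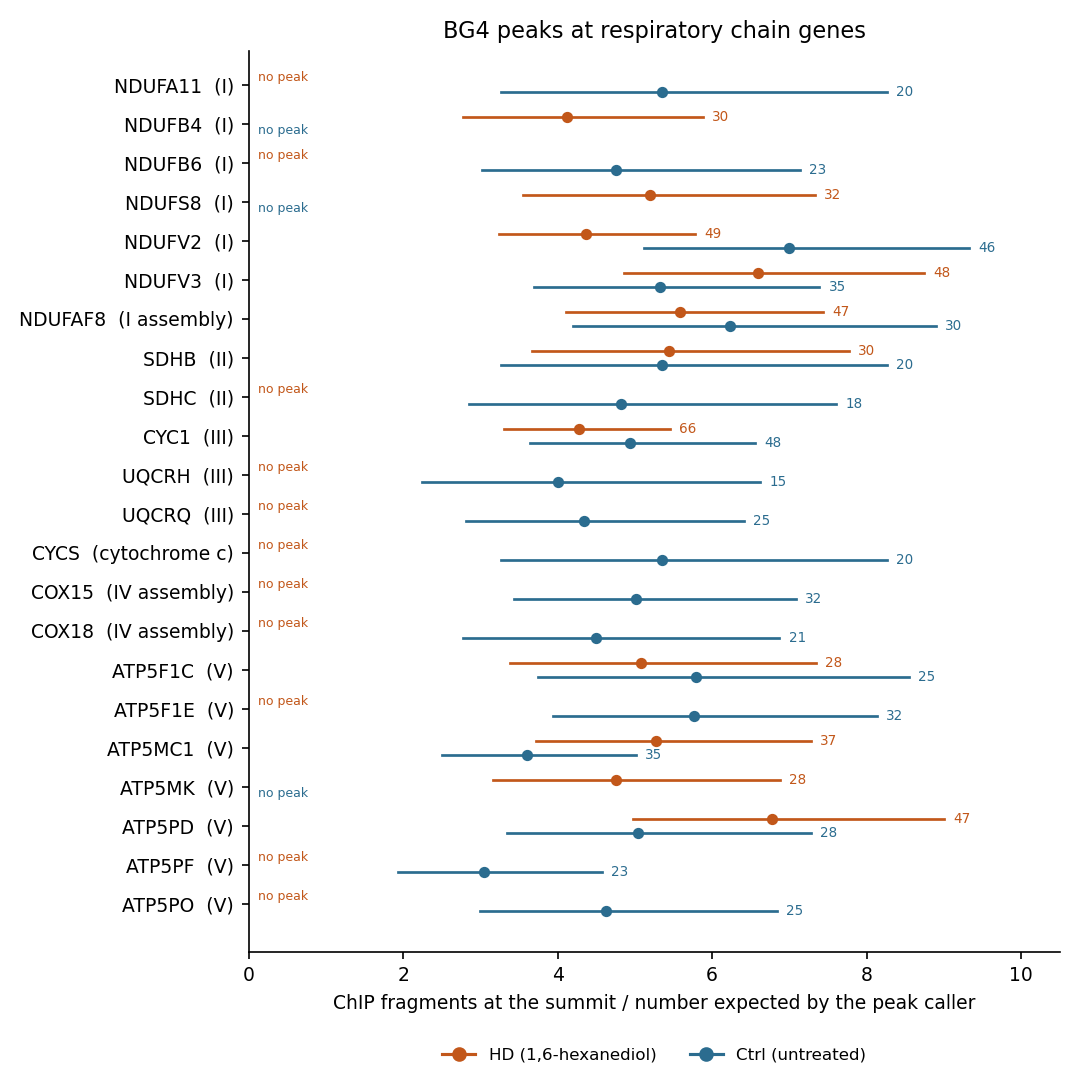
Ratio of ChIP fragments at the summit to the number the peak caller expected (horizontal axis) for each marked respiratory chain gene, with HD above Ctrl, exact 95% Poisson intervals and the fragment number beside each line. Ratios lie between 4.12 and 6.77 in HD and between 3.05 and 6.99 in Ctrl, and in each of the 8 genes drawn with both lists the intervals overlap.

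Peak heights at respiratory chain genes lay within the range of other marked genes. The 11 genes marked in HD had 28 to 66 fragments with a median of 37.0, where other marked coding genes had 20 to 194 with a median of 35.0. The 19 genes marked in Ctrl had 15 to 48 with a median of 25.0, where the others had 15 to 437 with a median of 27.0. Median ratios to the expectation were 5.19 in HD and 5.02 in Ctrl for respiratory chain genes, and 4.90 and 5.33 for other marked genes of these lists. Genes in both lists had the taller peaks by their median. Their HD peaks had a median of 47.0 fragments and those of genes in HD only 30.0, and their Ctrl peaks had a median of 32.5 and those of genes in Ctrl only 23.0. Other coding genes had the same order, with medians of 38.0 and 31.0 in HD and of 29.0 and 25.0 in Ctrl.

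The 8 genes in both lists allow HD and Ctrl to be set against each other at the same gene, though not at the same base. Each count was taken at the summit of its own list. The HD and Ctrl summits lay 2 bp (ATP5MC1) to 118 bp (SDHB) apart, and the intervals do not cover this. Fragments at the summit, divided by the ChIP depth of each condition, had HD to Ctrl ratios between 0.752 (0.461 to 1.23, ATP5MC1) and 1.19 (0.733 to 1.98, ATP5PD). NDUFV2 was at 0.758 (0.497 to 1.16), ATP5F1C at 0.797 (0.448 to 1.43), NDUFV3 at 0.976 (0.618 to 1.55) and CYC1 at 0.979 (0.665 to 1.45). SDHB was at 1.07 (0.587 to 1.98) and NDUFAF8 at 1.12 (0.691 to 1.83). The ratio was below 1 in 5 of 8 genes, and all 8 counting intervals included 1. Their median was 0.978, and that of the other 1022 coding genes in both lists was 0.931. With each count first divided by the expectation of its own list, the HD to Ctrl ratio was 0.626 for NDUFV2 and 1.47 for ATP5MC1, with a median of 0.959 beside 0.907 for the other genes. The 2 measures lie on opposite sides of 1 in 3 of 8 genes: ATP5MC1, NDUFV3 (1.24 by the second) and NDUFAF8 (0.898 by the second). Both conditions had to pass the threshold of their own list for a gene to enter here, and no gene with a peak in 1 list only is included.

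**Figure D3:**
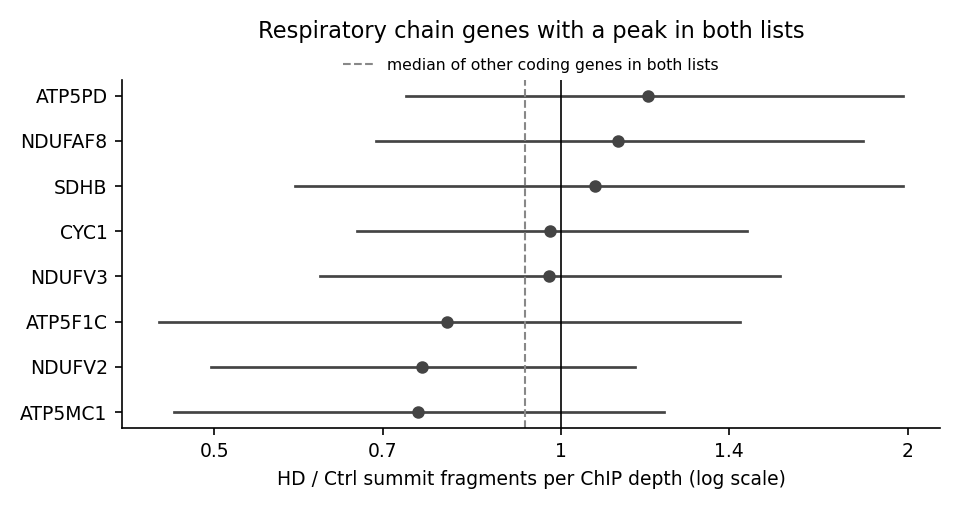
HD over Ctrl ratio of summit fragments per ChIP depth (log axis) for the 8 respiratory chain genes with a peak in both lists, with 95% counting intervals. Points lie between 0.752 and 1.19, each line crosses 1, and the dashed line is the median of the other coding genes, 0.931.

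In both lists most peaks lay at gene starts. In HD, all 10 marked genes with a known strand had the peak at the start and the summit upstream of it, and all 11 summits lay within 250 bp of the marked end, at 40 to 196 bp with a median of 118 bp. In Ctrl, 16 of 17 genes with a known strand had the start as the nearer end, though 645 bp from the peak at NDUFA11 and 437 bp at ATP5PF, and 1, NDUFB6, had the 3′ end. Summits in Ctrl lay 3 to 800 bp from the marked end with a median of 130 bp, and 15 of 19 (78.9%) were within 250 bp. Among other marked coding genes the share within 250 bp was 70.8% in HD and 74.5% in Ctrl. Each of the 8 genes in both lists had HD and Ctrl peaks that overlapped by at least 50% of the shorter peak. For other coding genes, neither the share with such an overlap nor the share of peaks at the start is given here. In HD, 4 of 11 peaks (36.4%) also touched the window of another coding gene, and in Ctrl 11 of 19 (57.9%). For other marked coding genes these shares were 36.9% and 35.4%.

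**Figure D4:**
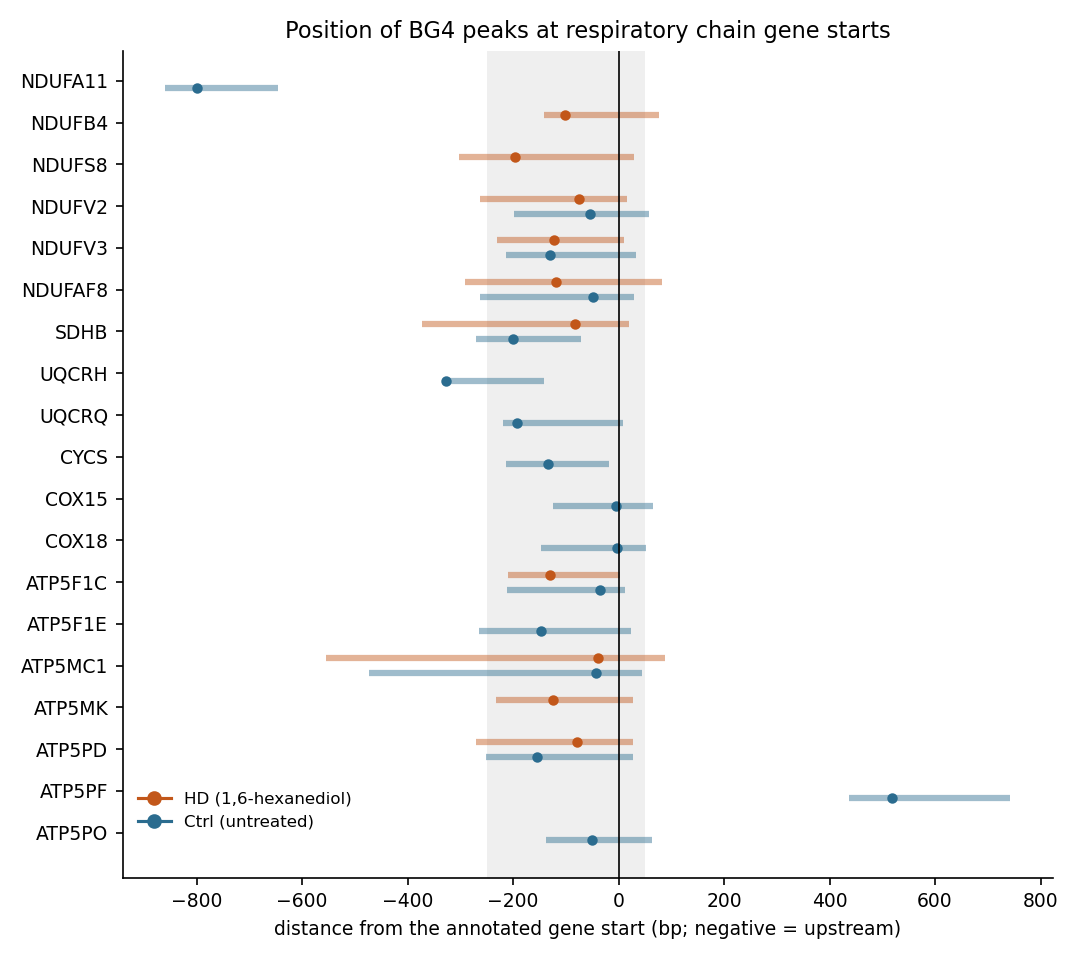
Extent (bars) and summit (points) of the peaks of marked respiratory chain genes relative to the annotated gene start, in bp, with HD above Ctrl and the promoter window of 250 bases before to 50 after the start shaded. Most summits lie within 250 bp upstream of the start, those of UQCRH, NDUFA11 and ATP5PF in Ctrl lie outside the shaded window, and CYC1 and SDHC (strand not used) and NDUFB6 (3′ end) are left out.

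Promoter windows were matched for 94 of the 114 genes, 20 of them marked in either list. Among these 20, the windows of NDUFA11 and NDUFB6 had no base under a peak, in this and the following motif counts. A G4 motif was present in 3 of the 20 marked (15.0%), in 12 of 74 unmarked (16.2%) and so in 15 of 94 in all (16.0%, 9.22% to 25.0%). Among all 15812 promoters matched to protein-coding genes 30.1% had one, among other marked genes 36.3% and among other unmarked genes 29.2%. Loops of up to 12 bases gave 25 of 94 (26.6%, beside 45.1% of all promoters), and loops of up to 3 gave 4 of 94 (4.26%, beside 12.4%). The respiratory chain share was below the share in all promoters at each of these settings.

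The 3 marked genes with the motif were ATP5PD, NDUFV2 and SDHB, and both lists marked each of them. In ATP5PD it spanned 29 bases from 195 to 167 before the start, 88 bp from the HD summit and 13 bp from the Ctrl summit. In NDUFV2 it spanned 58 bases, from 142 to 85 before the start, 9 bp from the HD summit and 31 bp from the Ctrl summit. In SDHB it spanned 23 bases, from 157 to 135 before the start, 52 bp from the HD summit and 44 bp from the Ctrl summit. The other printed promoters hold guanine runs but no match to these letters in this window.

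The 3 transcription factor motifs were chosen after results of these data had been seen, and a match describes the letters only. The NRF-1 motif was in 28 of 94 respiratory chain promoters (29.8%, beside 11.0% of all promoters). It was in 6 of 20 marked and 22 of 74 unmarked ones (30.0% and 29.7%), and the marked genes with it were ATP5F1C, ATP5PF, ATP5PO, COX18, NDUFA11 and NDUFB4. The ETS motif was in the same number of promoters, 28 of 94 (29.8%, beside 14.1% of all), in 8 of 20 marked and in 20 of 74 unmarked ones (40.0% and 27.0%). It was found in ATP5MK, ATP5PD, ATP5PF, COX15, NDUFAF8, SDHB, UQCRH and UQCRQ. The YY1 motif was in 10 of 94 (10.6%, beside 2.69% of all), among them the marked ATP5PF, NDUFAF8 and SDHB. An ETS motif overlapped a G4 motif in 1 of the 94 promoters, and no other pair of these motifs overlapped there. In all promoters, ETS and G4 motifs overlapped in 41, NRF-1 and G4 motifs in 26, ETS and YY1 motifs in 3, NRF-1 and ETS motifs in 1, and NRF-1 and YY1 motifs in 1.

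**Figure D5:**
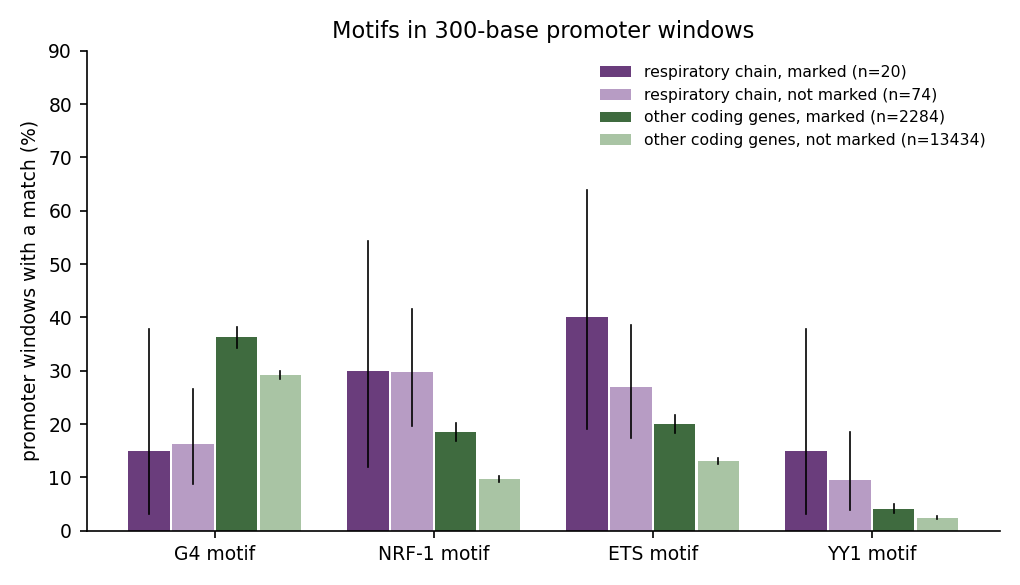
Percentage of 300-base promoter windows that match each motif on either strand, with exact 95% binomial intervals, for respiratory chain genes and for other coding genes, each divided into genes marked in either list and genes marked in neither. The G4 motif is in 15.0% and 16.2% of respiratory chain windows and in 36.3% and 29.2% of the others, and for the NRF-1, ETS and YY1 motifs the order is the other way round.

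Genes that serve the chain without falling under the symbol rule were listed in 4 groups, 92 genes in all, of which 13 (14.1%) were marked in HD and 16 (17.4%) in Ctrl, 9 of them in both. The backgrounds are again 8.11% in HD and 10.9% in Ctrl. Coenzyme Q synthesis had 4 of 13 marked in each list (30.8%, interval 9.09% to 61.4%, which includes the background of Ctrl but not that of HD). It is the smallest of the 4 groups, which were chosen with earlier results of these data known, and no enrichment was tested. COQ6, a hydroxylase of the pathway, held 58 fragments in HD and 51 in Ctrl, and COQ10B, a coenzyme Q binding protein, 42 in HD and 23 in Ctrl. COQ8B was marked in both lists with 26 fragments in HD and 27 in Ctrl, by peaks at opposite ends of the gene. These were 4.44 and 5.56 times the expectation, with a −log10 q of 3.26 in HD and 7.42 in Ctrl. Its paralog COQ8A, a kinase-like protein of the pathway, had 44 fragments in HD and no peak in Ctrl, and COQ9, a lipid-binding protein, had 21 in Ctrl and no peak in HD.

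Of 42 further assembly factors, 4 (9.52%, interval 2.66% to 22.6%) were marked in HD and 5 (11.9%, 3.98% to 25.6%) in Ctrl. ATPAF2, which assembles the head of complex V, held 33 fragments in HD and 22 in Ctrl, at 5.80 and 5.89 times the expectation. SCO2, a copper chaperone of complex IV, had 25 fragments in Ctrl only. Of 18 genes of the tricarboxylic acid cycle and pyruvate dehydrogenase, 2 (11.1%, 1.38% to 34.7%) were marked in HD and 3 (16.7%, 3.58% to 41.4%) in Ctrl. OGDH, the first enzyme of the oxoglutarate dehydrogenase complex, held 49 fragments in HD and 28 in Ctrl, at 5.66 and 3.71 times the expectation. Of 19 regulators of respiratory gene expression, 3 (15.8%, 3.38% to 39.6%) were marked in HD and 4 (21.1%, 6.05% to 45.6%) in Ctrl. In these 3 groups each interval included the background of its list. ESRRA, a nuclear receptor that drives respiratory genes, held 33 fragments in HD and 38 in Ctrl, at 5.99 and 10.2 times the expectation. TFB1M, a methyltransferase of mitochondrial ribosomal RNA, held 39 in HD and 33 in Ctrl, at 7.08 and 6.12 times the expectation. The ratios of ESRRA in both lists, of TFB1M in HD and of ATPAF2 in Ctrl rest on the genome-wide expectation. These ratios hold no value of input at the site. YY1 itself had 29 in HD only, and POLG, the mitochondrial DNA polymerase, 17 in Ctrl only.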

How the data were processed

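BG4 ChIP-seq data from U2OS cells were used as 2 peak lists, 1 per condition, each named in the labels of the 2 ChIP libraries of that condition. Per the submitters' processing notes, the tools were MACS2 2.2.7.1, SAMtools, FastQC 0.11.9 and Bowtie2 2.5.0, and the build was hg38. Their settings were not given in the sources used here, and input files were not analysed here. The authors deposited, for each peak, its position and summit, a display score, a fold enrichment ratio over local background, and −log10 p and −log10 q. The lowest −log10 q was 1.30 in HD and 1.31 in Ctrl.

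The fold is (pileup + 1) / (expectation + 1), and p is an upper Poisson tail of the pileup, a whole number of fragments times a scale (0.715 in HD, 0.927 in Ctrl). Fragments and the expectation were recovered from both, a step checked on simulated lists. Whole numbers met the deposited −log10 p to within 0.01 in 2262 of 2269 HD and 3502 of 3507 Ctrl peaks, and 4.10% and 4.90% of these had more than 1 match, of which the closest was taken. The fragment length recovered was 200.2 bp in HD and 190.7 bp in Ctrl. Amplified reads are not independent molecules, so intervals of fragment numbers and their ratios cover counting error only. The deposited fold and −log10 q were ranked only within a list.

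Gene ends came from the RefSeq table of GRCh38.p14, with scaffold genes left out (59003 of 59792 genes kept). Promoters and strands came from the RefSeq promoter table, which gave 94 of the 114 genes. Genes were selected by symbol, and promoters were matched to them by gene identifier and chromosome, with Python 3.11.15, pandas 2.3.3 and scipy 1.17.1. All marked genes are named, with the 3 unmarked ones nearest to a peak and, chosen afterwards, COX7A2L. Pathway genes were named as examples after their values were seen. The genes and lists were chosen with earlier results of these data known. Alternatives changed the window, the peaks, the assignment of peaks, the gene set and the motif loops.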

Additional observations from a re-analysis of the deposited data

Results flagged for a closer look

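The nuclear genes above leave out the subunits encoded in mitochondrial DNA, and both lists held peaks on the mitochondrial genome, which no comparison used. There were 6 such peaks in HD and 5 in Ctrl. They covered 14.5 kb in HD and 15.4 kb in Ctrl, and touched 11 of 13 protein-coding genes in HD and 12 of 13 in Ctrl, with ND4L the gene reached in Ctrl only among those touched in either list. The deposited fold of these peaks was 2.08 to 2.67 in HD and 1.90 to 3.11 in Ctrl. They are listed because they are a signal in data outside the comparisons above, with no untreated reference other than Ctrl itself, and no difference between the conditions was tested.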

How the results depend on the processing

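The count of marked genes in HD was 9 to 12 under every alternative run, and that of genes in both lists 7 to 9. In Ctrl it was 15 to 22, except that lists of equal length by −log10 q gave 10 genes in Ctrl and 3 in Ctrl only, since fewer Ctrl peaks were kept. The number of all coding genes marked also moved with the setting, from 1608 in HD and 2160 in Ctrl at the main one. A window of 500 bp gave 11 in HD and 17 in Ctrl, where 1440 and 1977 of all coding genes were marked. A window of 5 kb gave 12 and 22, where 1966 and 2658 of all were marked. With 1 gene per peak the counts were 9 in HD and 15 in Ctrl, where 1303 and 1783 of all were marked. The G4 motif count in promoters was 25 with loops of 1 to 12 bases and 4 with loops of 1 to 3, by construction of the motif. Of the 30 calls of a gene in a list, equal list length lost 9, 1 gene per peak lost 6, and the windows of 2 kb and 5 kb lost 0. A −log10 q of at least 3 lost ATP5PF and UQCRH in Ctrl. No paired analysis was possible because each condition has 1 list with no value per library, and for the same reason leaving out a library was not run. Depth limits the absence of a peak: the lists start at 20 fragments in HD and 15 in Ctrl, so a gene with no peak may still hold fragments.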

Other observations

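The GC content of promoter windows differed little within the respiratory chain genes. Its median was 62.0% in the 20 marked windows and 61.2% in the 74 unmarked ones. Among other coding genes it was 67.3% in marked and 61.7% in unmarked windows. The marked respiratory chain windows ranged from 49.7% to 74.7%. How GC content bears on the counts of marked genes was not tested.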
